A study of Caenorhabditis elegans with 24 samples.

Results

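Transcript levels in 4-cell embryos of Caenorhabditis elegans were compared between the strain HC445 and the wild-type strain N2 when the mothers had lived at 25 °C. The samples are the 3 arrays titled HC445 25°G2 and the 3 titled N2 25°G2, which make up 6 of the 24 arrays of the series. N2 is the standard laboratory wild type. HC445 carries sid-1(qt9), and its label lists a loss of haf-6 as suspected only. In both groups the grandparents were kept at 20 °C, the mothers at 25 °C, and the embryos counted as generation 2. The groups set beside them were HC445 and N2 of generation 2 with mothers and grandparents at 20 °C, HC445 and N2 of generation 3 with both at 20 °C, and HC445 and N2 of generation 3 with mothers at 20 °C and grandparents at 25 °C. All 8 groups had 3 arrays each, and all worms were fed Bacillus subtilis. Each sample held the RNA of 50 hand-collected embryos, amplified in 2 rounds, so fewer embryos holding a transcript and less of it per embryo cannot be told apart. The labels do not say that the 3 samples of a group were grown as separate cultures, and the spread behind each p-value may be technical.

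SID-1 is a membrane protein through which double-stranded RNA enters cells, and without it RNA interference does not spread from one tissue to another. HAF-6 is a half-size ABC transporter that C. elegans needs for efficient RNA interference in the germ line and intestine. The embryo at the 4-cell stage relies on RNA that the mother packed into the oocyte, and most of its own genes are still silent.

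The array held 15208 gene probes, 1 per gene, named by WormBase gene ID. The files do not pair these IDs with names, and 0 of the IDs were found in the gene table used here. For want of names, the levels of sid-1 and haf-6, which would check the strain labels, were not looked up. Nor were gene families, markers of sperm and maternal tissues, or markers of embryo stage. The probes reported below may include those of sid-1 or haf-6. At most 2 IDs are given per direction in a comparison and other probes are named by their rank. Between 9109 and 13075 probes per array were well above background, and 11637 were tested because they were so on every array of at least 1 group. Among the 6 arrays the lowest of these counts was 9109, on N2 replicate 2, and the other 5 arrays had 11200 to 12510. On the replicate 3 arrays of both strains many dim probes were tied at the lowest value (1518 probes in N2 and 1976 in HC445), and no probe called below had such a value. Labels of 3 of the 6 arrays (N2 replicates 1 and 3, HC445 replicate 3) note or suspect an excess of the control RNA added to each sample. Levels are given as log2 of the processed signal minus log2 of the array's 75th percentile, so a level of 0 is at that percentile and a level 1 lower is 2-fold dimmer.

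With mothers at 25 °C, 7 probes were lower in HC445 than in N2 and 0 were higher (limma, 8 groups, adjusted p under 0.05). That is 0.0602% of the 11637 tested. An unadjusted p under 0.05 was seen for 236 probes, where 582 would be expected by chance if no probe differed. The 7 differences ranged from 2.25-fold to 23.8-fold. On all 6 arrays each of the 7 was well above background and unsaturated, and the 3 HC445 values lay below the 3 N2 values. Over all tested probes the median log2 difference was −0.044, with an SD of 0.39. Without the arrays whose labels carry the control RNA note, 1 of the 7 still passed, with a single N2 array left, and without the slide that holds both replicate 3 arrays 3 probes passed.

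The largest difference was that of WBGene00004795. Its log2 level was −0.31, −0.98 and −1.14 in the N2 arrays of replicates 1 to 3 and −4.92, −5.61 and −5.63 in the HC445 arrays. Every HC445 array lay below every N2 array, and the gap between the groups was wider than the spread within either. In unscaled signal the N2 arrays read 32850, 17800 and 13710, against 1282, 929.5 and 733.4 in HC445. HC445 was 23.8-fold lower (log2 −4.58 ± 0.35 SE, n = 3 and 3, limma adjusted p = 9.89e-08).

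WBGene00021349 came second. Its log2 level was −4.01, −4.11 and −3.80 in N2 and −7.54, −8.83 and −8.13 in HC445. The N2 arrays agreed closely, with an SD of 0.16, and the HC445 arrays spread more, with an SD of 0.65. HC445 was 18.3-fold lower (log2 −4.19 ± 0.40 SE, limma adjusted p = 2.22e-06).

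The third probe had log2 levels of −1.22, −1.31 and −1.22 in N2 and −3.62, −4.02 and −4.45 in HC445. It was 6.87-fold lower in HC445 (log2 −2.78 ± 0.26 SE, limma adjusted p = 2.11e-06).

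The fourth probe had log2 levels of −5.09, −4.81 and −4.63 in N2 and −6.01, −7.43 and −7.46 in HC445, a 4.37-fold difference (log2 −2.13 ± 0.38 SE, limma adjusted p = 0.0269). Its HC445 value on replicate 1 was nearer to the N2 arrays than the other two were. The fifth had −1.94, −2.02 and −1.87 in N2 and −3.71, −3.39 and −2.98 in HC445, a 2.68-fold difference (log2 −1.42 ± 0.26 SE, limma adjusted p = 0.0279). The groups were well separated, with the N2 arrays the tighter of the 2 strains. The sixth had −1.03, −0.92 and −0.90 in N2 and −2.26, −2.26 and −2.08 in HC445, a 2.38-fold difference (log2 −1.25 ± 0.20 SE, limma adjusted p = 0.00753). The seventh was a bright probe, at 1.43, 1.26 and 1.24 in N2 and 0.44, 0.17 and −0.18 in HC445, a 2.25-fold difference (log2 −1.17 ± 0.20 SE, limma adjusted p = 0.0140). In 6 of the 7 the HC445 arrays had the higher SD, as the seventh shows with 0.31 against 0.11 in N2. WBGene00004795 was the exception. This did not hold over the tested probes, whose median SD was 0.288 in HC445 and 0.305 in N2.

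**Figure D1:**
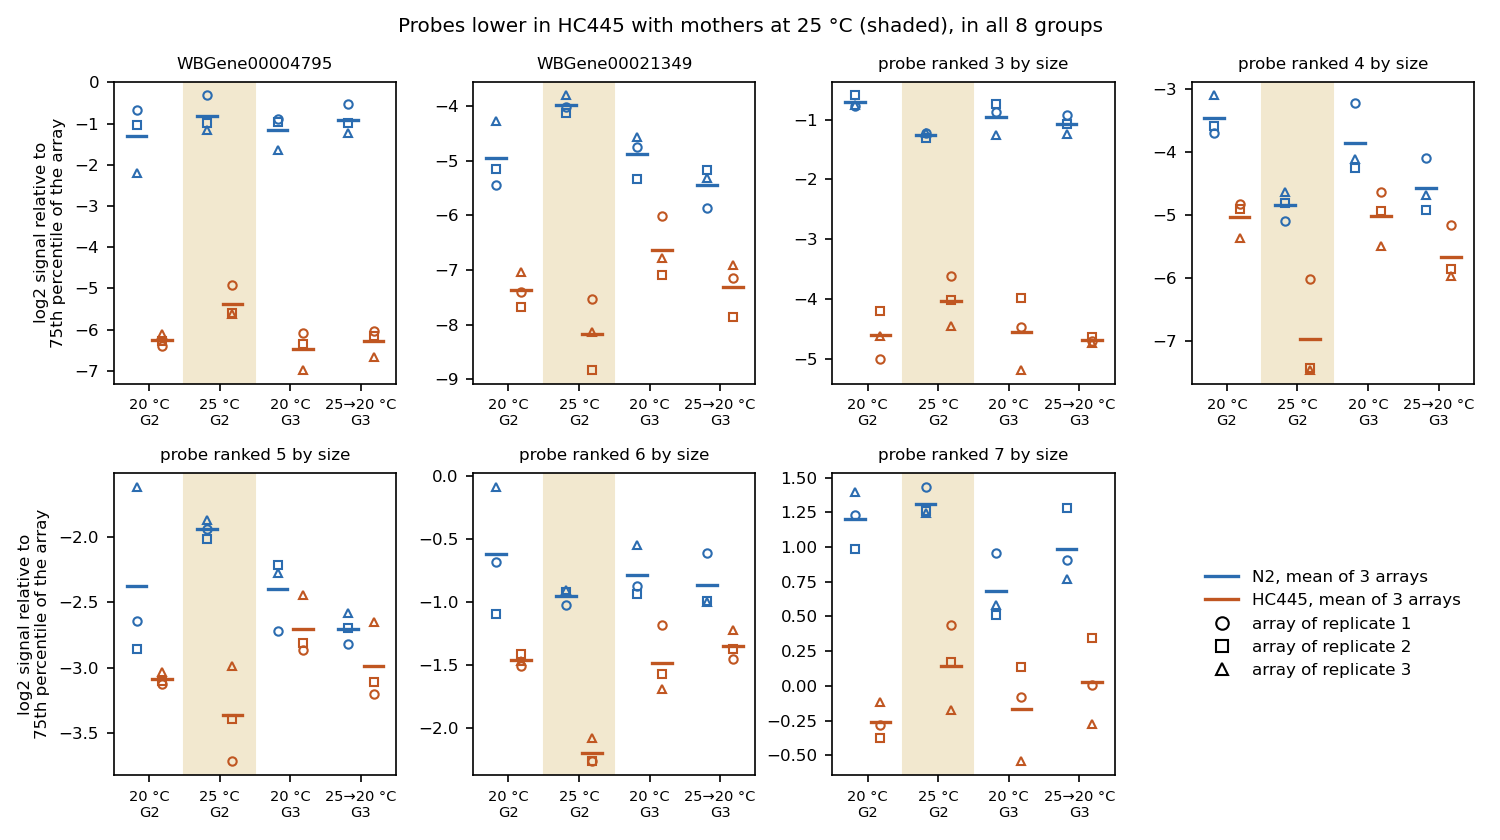
Log2 level (minus that of the array's 75th percentile) of the 7 probes lower in HC445 with mothers at 25 °C, on every array of the 8 groups (G2 and G3, generations 2 and 3; 25→20 °C, grandparents at 25 °C and mothers at 20 °C). Points are arrays and lines are means of 3 arrays; in the shaded groups no HC445 point reaches the N2 points, and WBGene00004795 shows a wide gap in every condition.

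Arrays with the same replicate number were scanned on the same day, and at 25 °C the same-numbered arrays of the 2 strains deviated together. In each same-day pair all 7 probes were lower in HC445, which follows from their groups not overlapping and adds no support. WBGene00004795 differed by log2 −4.61, −4.63 and −4.49 in the pairs of replicates 1, 2 and 3. WBGene00021349 differed by −3.53, −4.71 and −4.34, and the third probe by −2.40, −2.71 and −3.23. The fourth probe was the least even, at −0.92, −2.63 and −2.83, so its replicate 1 pair fell short of 2-fold. At least 2-fold differences were seen for 5 of the 7 in the replicate 1 pair and for 7 in each of the other pairs. The arrays of replicates 2 and 3 shared a slide within the pair, so those differences are also differences within a slide, while the replicate 1 arrays lay on different slides.

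**Figure D2:**
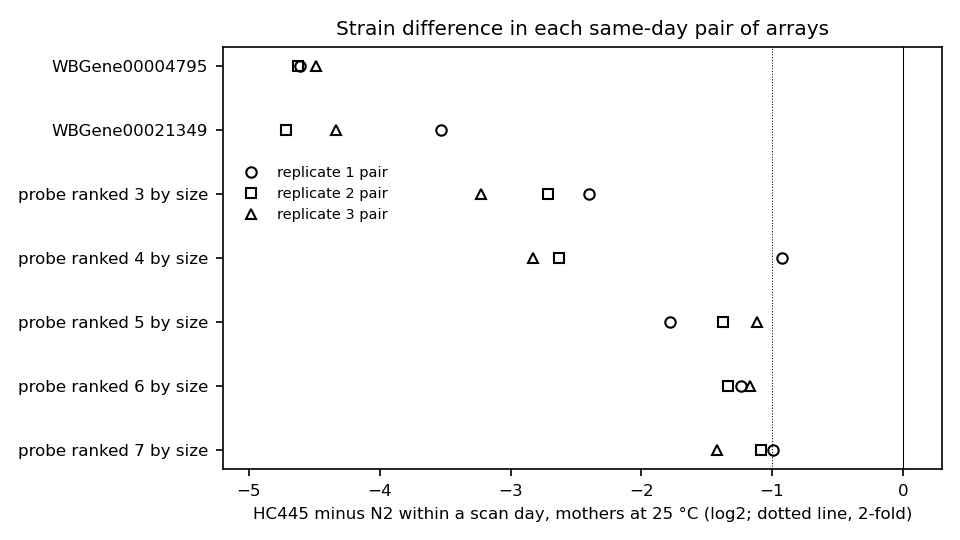
HC445 minus N2 (log2) within each same-day pair of arrays with mothers at 25 °C, for the 7 probes that passed the test. Every point lies below 0, which follows from the groups not overlapping. The replicate 1 pair of the fourth probe, at −0.92, is the nearest to 0.

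With the replicate number as a block, 11 probes passed (0.0945% of those tested), and they included all 7. Of these, 10 were lower (0.0859%) and 1 was higher (0.00859%) in HC445. In that fit WBGene00004795 had a limma adjusted p of 3.36e-10 and WBGene00021349 one of 3.84e-07. The probe that rose was WBGene00009453, with log2 levels of −3.81, −4.39 and −3.33 in N2 and −2.72, −2.51 and −2.21 in HC445. Its groups did not overlap either, so HC445 was higher in each of the 3 pairs, by 1.09, 1.88 and 1.12 (log2 1.36, limma adjusted p = 0.0295 with the block and 0.134 without it). With the slide as a random block 15 probes passed (0.129%), 14 lower (0.12%) and 1 higher, the original 7 among them. With the slide as a fixed block 5 passed (0.043%), all of them among the 7. The fourth and the fifth probe lost their call in that fit, with limma adjusted p of 0.0752 and 0.265, at log2 differences of −2.53 and −1.33.

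The question the 25 °C samples put is which strain differences appear with heated mothers and not otherwise. With mothers at 20 °C in the same generation, 6 probes passed the same test (0.0516% of 11637), 6 lower and 0 higher in HC445. Over the mean of the 3 conditions with mothers at 20 °C (9 arrays against 9), 17 passed (0.146%), 15 lower (0.129%) and 2 higher (0.0172%). With quantile normalization the split was 4 lower and 2 higher in the first of these and 10 lower and 5 higher in the second. Of the 7 probes called at 25 °C, 4 were also among the 6, which is 57.1% of the 7 and 66.7% of the 6. Of the 7, 6 were also among the 17, which is 85.7% and 35.3%. The one left over was the fifth. With the replicate block in every list, 10 probes passed with mothers at 20 °C in generation 2 (0.0859%) and 30 over the 3 other conditions (0.258%). Of the 11 at 25 °C, 6 were then among the 10 (54.5% and 60.0%) and 9 among the 30 (81.8% and 30.0%). The 2 left over were the fifth probe and a further lower probe that passed with the block alone (limma adjusted p = 0.0295 at 25 °C, and 0.846 and 0.575 in the 2 other comparisons). A call in one list and not in another does not show a difference between temperatures, which was tested directly.

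In the 9 same-number pairs of the other conditions all 7 probes were lower in HC445 in every pair. For WBGene00004795 these differences ran from −5.72 to −3.91, for WBGene00021349 from −2.77 to −1.26, and for the fifth probe from −1.42 to −0.069. Over all 24 arrays the highest HC445 array lay below the lowest N2 array for 5 of the 7, and the fourth and the fifth probe overlapped. These 24 include the arrays on which the 7 were called, so part of that separation was fixed by the choice. The share of all tested probes with either pattern was not counted. WBGene00009453 was higher in HC445 in all 9 of those pairs, by 0.64 to 2.20.

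WBGene00004795 differed by log2 −4.96 with mothers at 20 °C in generation 2 (adjusted p = 1.00e-08) and by −5.22 over the 3 other conditions (adjusted p = 8.46e-14, both limma). The third probe differed by −3.91 and −3.71 in the same comparisons, more than the −2.78 at 25 °C. WBGene00021349 differed by −2.42 (limma adjusted p = 0.0136) and −2.01 (limma adjusted p = 3.63e-05), less than the −4.19 at 25 °C. The fifth probe gave −0.72 (limma adjusted p = 1) and −0.44 (limma adjusted p = 0.749), against −1.42 at 25 °C. The seventh was about as large at 20 °C, at −1.46, as at 25 °C. The 3 largest differences at 25 °C thus also passed the test at 20 °C, whereas over all 11637 probes their log2 differences correlated weakly (Pearson r = 0.10, across probes, which share the arrays of each group and are not independent).

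**Figure D3:**
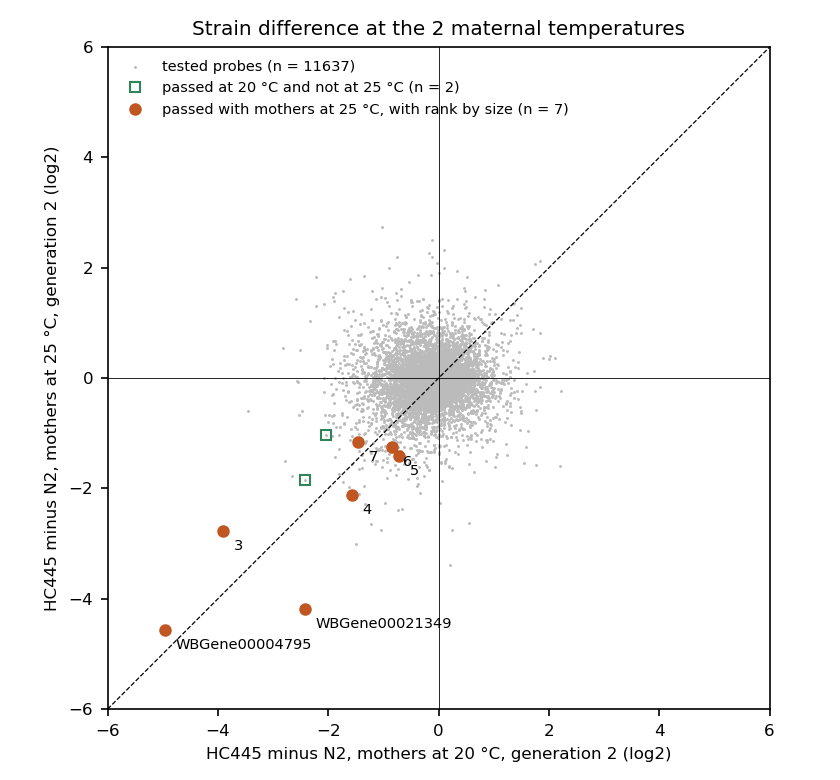
HC445 minus N2 (log2) for all 11637 tested probes in generation 2, with mothers at 20 °C on the horizontal axis and at 25 °C on the vertical; each axis compares 3 arrays with 3, and the dashed line marks equal differences. The 7 probes called at 25 °C (filled, numbered by size) lie below 0 on both axes; WBGene00021349 lies below the dashed line and the third probe above it.

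Whether a strain difference depended on maternal temperature was tested as the strain difference at 25 °C minus that at 20 °C. Within generation 2, 0 of 11637 probes passed (limma, smallest adjusted p = 0.9996), and 142 had an unadjusted p under 0.05. The block gave 0 with 385 such probes. Both counts were below the 582 expected by chance if no probe changed. With the slide as a fixed block 1 probe passed (0.00859%, limma adjusted p = 0.000192), WBGene00003725, which is named because of this call. Its log2 level with mothers at 25 °C was −2.49, −2.72 and −2.39 in N2 and −2.94, −2.55 and −2.28 in HC445, and at 20 °C it was −0.84, −1.27 and −0.96 in N2 and −1.31, −1.37 and −8.11 in HC445. The strains overlapped at 25 °C, and the single array that stood apart was HC445 replicate 3 at 20 °C. Without a slide term its shift was 2.51 (limma adjusted p = 0.9996). Against the mean of the 3 other conditions, 0 passed as well (limma, smallest adjusted p = 0.9999), with 187 probes at an unadjusted p under 0.05. The block gave 0 with 438, and both counts were again below the 582 expected by chance. These fits were less precise than those within a temperature: the median SE of a probe was 0.44 and 0.36 on the log2 scale, against 0.31 for the strain difference at 25 °C.

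WBGene00021349 had the widest gap between temperatures among the 7. Its N2 level was −5.44, −5.14 and −4.27 with mothers at 20 °C and −4.01, −4.11 and −3.80 at 25 °C. Its HC445 level was −7.40, −7.68 and −7.04 at 20 °C and −7.54, −8.83 and −8.13 at 25 °C. N2 was thus brighter and HC445 dimmer with mothers at 25 °C, and the strain difference was larger by log2 −1.77 (95% interval −2.95 to −0.60, limma adjusted p = 0.9996). Against the 3 other conditions it was larger by −2.18 (−3.14 to −1.22, limma adjusted p = 0.9999). That adjusted p was 0.239 with the replicate block and 0.0275 with the slide as a random block, where it was the 1 probe of 11637 that passed (0.00859%).

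The third probe moved the other way. Its N2 level was −0.77, −0.59 and −0.75 with mothers at 20 °C against −1.22, −1.31 and −1.22 at 25 °C, and its HC445 level was −5.003, −4.20 and −4.62 against −3.62, −4.02 and −4.45. The strain difference was therefore smaller at 25 °C, by 1.13 on the log2 scale (95% interval 0.36 to 1.89, limma adjusted p = 0.9996). For WBGene00004795 the change was 0.39 (95% interval −0.64 to 1.42), so the interval holds both a larger and a smaller difference at 25 °C. For the fifth probe it was −0.71 (−1.47 to 0.055) within generation 2 and −0.99 (−1.61 to −0.36, limma adjusted p = 0.9999) against the other conditions. These intervals are per probe and unadjusted, and the 7 probes were chosen for large differences at 25 °C, which favours larger differences there than at 20 °C.

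**Figure D4:**
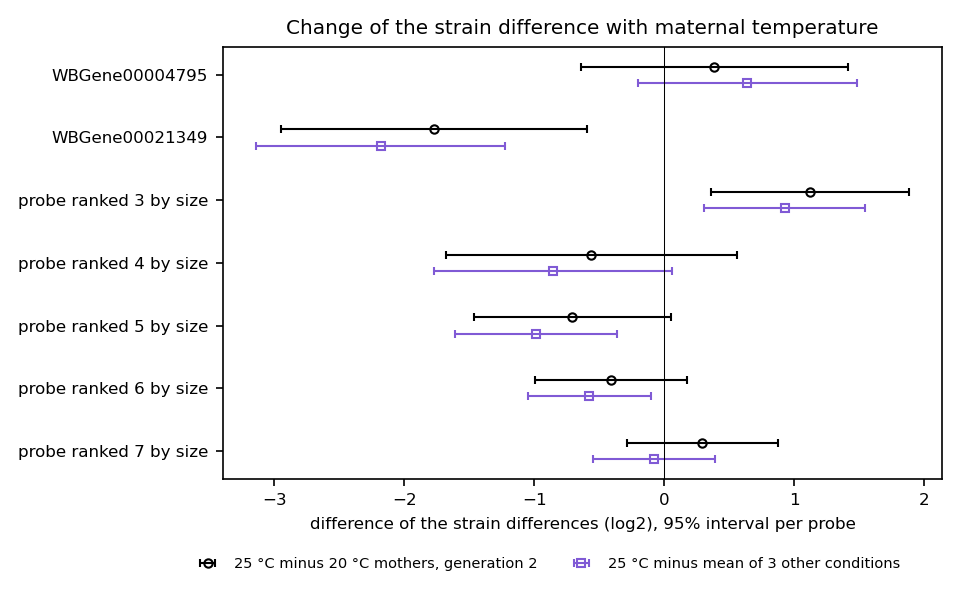
Change of the HC445 minus N2 difference (log2) between mothers at 25 °C and at 20 °C in generation 2 (circles) and between mothers at 25 °C and the mean of the 3 other conditions (squares), with unadjusted 95% intervals, for the 7 probes called at 25 °C. Values below 0 mean HC445 was further below N2 at 25 °C; WBGene00021349 lies at −1.77 and −2.18, the third probe at 1.13 and 0.93, and the circles of the other 5 have intervals that reach across 0.

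Among all probes, the smallest p for a strain difference shifted downward at 25 °C within generation 2 was that of WBGene00008973. Its levels with mothers at 25 °C were 1.64, 1.56 and 1.72 in N2 and 1.43, 1.21 and 1.35 in HC445, and at 20 °C 0.82, 1.16 and 0.17 in N2 and 1.601, 1.46 and 1.13 in HC445. HC445 lay below N2 in all arrays at 25 °C, but the N2 arrays at 20 °C spread over about as much as the shift itself (−0.99 ± 0.26 SE, limma adjusted p = 0.9996). The second was WBGene00001852, at −3.41, −3.23 and −3.13 in N2 and −3.63, −3.99 and −3.42 in HC445 at 25 °C (shift −1.501 ± 0.43 SE, limma adjusted p = 0.9996). In the upward direction WBGene00009940 had the smallest p. Its levels at 25 °C were −1.21, −1.22 and −1.01 in N2 and −0.23, −0.66 and −0.98 in HC445, and at 20 °C HC445 was the lower strain (shift 0.97 ± 0.27 SE, limma adjusted p = 0.9996). None of these passed. The next probe was well above background on 0 of 3 N2 arrays at 25 °C, so its shift has only a bound and is not given.

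Among probes that did not pass at 25 °C, large differences lay mostly among dim ones. When the tested probes were split by mean level into 3 classes of 3879 each, a difference of at least 2-fold without a call was seen for 325 of the dim, 35 of the middle and 0 of the bright probes. The median SE was 0.68, 0.31 and 0.16 in the same order, and the calls numbered 0, 6 and 1. Among the 11272 tested probes with values on all 6 arrays, all HC445 values lay above all N2 values for 169 (1.5%) and below for 498 (4.42%). This balance depended on the scaling, since quantile normalization gave 325 above and 289 below. With mothers at 20 °C in generation 2 the counts were 167 (1.5%) and 500 (4.5%), and 312 and 397 with quantile normalization. Groups of 3 and 3 arrays also separate by chance. None of these counts was tested, so they are not counts of strain differences.

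Of these 11272 probes, 72 were below and at least 2-fold lower in HC445, and 41 were above and at least 2-fold higher. With mothers and grandparents at 20 °C the counts were 153 and 32 of 11121 in generation 2, and 206 and 221 of 11393 in generation 3. With grandparents at 25 °C and mothers at 20 °C they were 61 and 30 of 11487. Of the 72, 53 (73.6%) had the same sign with mothers at 20 °C, against 58.2% of all tested probes that were lower at 25 °C. A 2-fold difference of that sign was seen at 20 °C for 13 of them, and their median log2 difference was −1.33 at 25 °C and −0.40 at 20 °C. Of the 41, 17 (41.5%) had the same sign at 20 °C, against 46.5% of all probes that were higher at 25 °C, and 6 were also 2-fold higher there. Their median was 1.34 at 25 °C and −0.13 at 20 °C. The probes were picked at 25 °C, so a smaller median at 20 °C is no measure of a temperature effect.

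No probe was well above background on all 3 N2 arrays and on 0 HC445 arrays at 25 °C. The reverse held for 27 probes, and their HC445 signal exceeded the N2 bound by at most 1.87-fold. For 9 of the 27 the bound was above the HC445 mean, and 0 passed the test (smallest limma adjusted p = 0.762, with 5 at an unadjusted p under 0.05). N2 replicate 2 had the fewest probes above background of the 6 arrays, at 9109, and its part in this count was not tested. With mothers at 20 °C in generation 2 the counts were 4 probes for HC445 alone and 25 for N2 alone, and 0 of the 27 were among the 4. In generation 3 the counts were 35 and 11 with mothers and grandparents at 20 °C. They were 3 and 13 with grandparents at 25 °C and mothers at 20 °C. A larger count for HC445 alone was thus also seen without heat.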

How the data were processed

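Per the labels' protocols, amplified RNA of each sample was labelled with Cy3 for a one-colour Agilent array. Spot intensity was extracted by the authors and, per the file headers, background-subtracted (Agilent Feature Extraction, version 9.5.3.1). Flags of 0 or 1 (the other values used) come from the same deposited files. The deposited series table holds log2 values with a median of 9.03 in every column, in the order of its own array's signal (Spearman at least 0.9989). Its centring and processing are not given in the sources used here.

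Control spots were left out and outlier spots set to missing. Values were log2 of the processed intensity minus the array's 75th percentile. Means of 8 groups were fitted with lmFit and tested by eBayes with a mean-variance trend (limma 3.58.1, R 4.3.3), two-sided, with Benjamini-Hochberg adjustment over 11637 probes at 0.05. The number of arrays limits the precision.

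Replicate numbers mark 3 scan days. Deviations of same-numbered arrays at 25 °C correlated at 0.29, 0.34 and 0.41, so the numbers were taken to pair them. The pairs of replicates 2 and 3 also shared a slide, so scan day and slide cannot be told apart there. Values with the replicate number as a block are given beside the calls and overlaps they move. With mothers at 20 °C in generation 2 the correlations were 0.28, −0.057 and −0.12. The highest there was 0.34, between HC445 replicate 2 and N2 replicate 3, so same-number pairs there rest on scan day alone.

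The samples, lists and tests were chosen with earlier results of these data known. Named probes were the largest called in each direction whose groups did not overlap, and those called with the replicate block whose pairs all agreed in sign. Those with the smallest p for a change with temperature were added, at most 2 IDs per direction. Lists by gene name were not used, for want of names. Alternatives covered normalization, background correction, probe filter, blocks, array weights, the mean-variance trend and left-out arrays.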

Additional observations from a re-analysis of the deposited data

Results flagged for a closer look

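Both probes here are among those called with mothers at 25 °C, and they were singled out because every N2 array moved one way between mothers at 20 °C and 25 °C and every HC445 array the other way, array against array of the same replicate number. The share of all tested probes with such opposite moves was not counted, so the pattern is not known to be particular to these probes. WBGene00021349 was higher at 25 °C in N2 by log2 1.44, 1.03 and 0.48 (replicates 1, 2 and 3) and differed by −0.14, −1.15 and −1.09 in HC445. The change in HC445 minus that in N2 was −1.77 (95% interval −2.95 to −0.60), and limma's test of it did not pass (adjusted p = 0.9996).

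The third probe by size differed by −0.45, −0.72 and −0.47 in N2 and by 1.38, 0.18 and 0.17 in HC445. The change in HC445 minus that in N2 was 1.13 (95% interval 0.36 to 1.89), which did not pass either (limma adjusted p = 0.9996). The 1.38 of replicate 1 was the largest of the 6 steps.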

How the results depend on the processing

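The count of 7 at 25 °C was 1 to 15 over 31 settings. It was 15 with the slide as a random block, 11 with the replicate block, 4 with generation 2 alone or without the variance trend, 3 with the 6 arrays alone or without the slide of both replicate 3 arrays (a setting chosen after seeing the data), and 1 without the spike-in arrays (those whose label notes one). That setting leaves 1 N2 array at 25 °C, assumed to vary like the other groups, so it says little about stability. Leaving out 1 array or 1 replicate gave 3 to 8: 4 without N2 replicate 1 or 2, 3 without N2 replicate 3 or HC445 replicate 2, 4 without all replicate 1 arrays and 3 without all replicate 2 arrays. WBGene00004795 passed in all 31 settings, WBGene00021349 and the third probe in 30 (adjusted p = 0.0928 and 0.0684 without the spike-in arrays), the sixth in 21, the seventh in 19, the fifth in 15 and the fourth in 14. Their log2 differences kept their direction: −2.98 to −2.51 for the third, −2.73 to −1.55 for the fourth, −1.61 to −1.24 for the fifth, −1.34 to −1.18 for the sixth and −1.31 to −0.95 for the seventh.

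With mothers at 20 °C the 6 became 10 with the replicate block, 2 with the slide fixed and 3 without the spike-in arrays or that slide, and 2 to 6 with replicates left out. Over the 3 other conditions the 17 became 30, 3, 6 and 10 in the same order, and 6 to 22. The change with temperature stayed at 0 calls except for 1 with the slide fixed (higher, generation 2) and 1 with the slide random (lower, other conditions). Turned in sign with the slide fixed, within generation 2, were WBGene00004795 (−0.15), the third probe (−0.0745) and the seventh (−0.67). Against the other conditions the seventh turned with normexp (0.015), without the spike-in arrays (0.12), without that slide (0.036) and without HC445 replicate 3 (0.084); over left-out arrays it ran from −0.22 to 0.084. The causes were not tested. The fixed slide fit has 3 residual degrees of freedom. With 3 arrays per group, and a median SE of 0.44 for a change with temperature, small changes were not detectable. Large ones did not pass either, such as the log2 −1.77 of WBGene00021349 within generation 2 (limma adjusted p = 0.9996). The 0 calls therefore do not show that sizeable changes were absent. The replicate block left both tests of a change with temperature at 0 calls.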
